A study of Mus musculus with 10 samples.

Results

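The regions described here are the PRDM16 ChIP-Seq peaks that lie just downstream of a transcription start site (TSS). A peak was a member when it was shorter than 1000 bp and its centre lay 101 to 2000 bp downstream, in the direction of transcription, of the nearest TSS of a curated RefSeq transcript of GRCm38. Of the 11271 peaks of the PRDM16 library, 4519 were members (40.1%; exact Clopper-Pearson 95% interval, 39.2% to 41.0%), which made this the largest of the classes compared. Of the other peaks, 1674 were of the same length class but lay upstream of or at a TSS, 829 were 1 kb or longer, 4236 lay more than 2 kb from any TSS, and 13 were on unplaced contigs. The study was designed to find the genes through which PRDM16 acts in vascular smooth muscle and blood pressure.

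The peaks came from primary mouse cells labelled as vascular fibroblasts of wild type genotype. They received a lentivirus for 48 hours, either one that encodes PRDM16 with a Flag tag or one with no insert, and infected cells were selected with puromycin (2 μg/mL) over 1 week. Chromatin was then precipitated with anti-Flag, giving 1 library per condition. The tagged protein was therefore supplied from a vector, no expression file of these fibroblasts was used with which to check their identity, and no peak value has a replicate. RNA-Seq was from thoracic aortas of 3 control mice (Prdm16f/f) and 3 Prdm16SMKO mice (Prdm16f/f, SMMHC-CreERT2), in which tamoxifen-activated Cre is driven by the smooth muscle myosin heavy chain promoter, so that the other cell types of the vessel keep the gene. By the study's methods, knockout was induced with tamoxifen given for 5 days from 8 weeks of age, followed by 2 weeks without it.

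PRDM16 is a zinc finger regulator of transcription of the PR domain family, best known for its part in the brown fat program, and it works with cofactors that modify histones or repress transcription. RNA polymerase II starts at the TSS and passes through the first exon and into the first intron, over a stretch in which the promoters of many widely expressed genes lie in a CpG island. A CpG island is a region rich in G and C in which the dinucleotide CG, elsewhere depleted because methylated cytosine mutates, is kept. ChIP-Seq reports where a tagged protein, or a complex that contains it, was crosslinked to DNA, and does not by itself show that the neighbouring gene responds.

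The sequences below show what lies under the summits of these peaks. Each is the 101 bp centred on a summit, read from GRCm38 (RefSeq) on the transcribed strand, with CG in capitals. They were limited to windows that lie whole inside an intron of every curated transcript there, in genes of the circadian clock, in genes that differed between the aortas, and at the peaks of highest fold enrichment.

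Windows from the introns of *Csnk1d* (chr11:120990766-120990866, minus strand), *Rora* (chr9:68654827-68654927, plus strand), *Tef* (chr15:81802996-81803096, plus strand), and *Per2* (chr1:91458684-91458784, minus strand), all genes of the clock system:
Csnk1d: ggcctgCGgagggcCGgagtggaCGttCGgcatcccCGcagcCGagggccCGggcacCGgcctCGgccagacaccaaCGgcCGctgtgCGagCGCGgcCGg
Rora: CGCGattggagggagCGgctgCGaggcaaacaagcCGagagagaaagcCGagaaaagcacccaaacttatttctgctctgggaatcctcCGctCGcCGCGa
Tef: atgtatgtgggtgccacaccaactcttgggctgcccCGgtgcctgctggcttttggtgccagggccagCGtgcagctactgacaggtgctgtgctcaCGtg
Per2: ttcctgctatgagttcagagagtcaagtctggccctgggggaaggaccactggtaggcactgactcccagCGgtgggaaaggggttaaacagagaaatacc
The window of *Csnk1d*, which encodes casein kinase 1 delta, holds 15 CG and has 79.2% G+C. The window of *Rora*, which encodes a nuclear receptor that activates *Bmal1*, holds 10 CG. By contrast, the window of *Tef*, which encodes a PAR bZIP factor, holds 3, and that of *Per2* holds 1 with 54.5% G+C. Of the windows found by this rule, that of *Tef* alone contains the E-box CACGTG, the site of CLOCK:BMAL1 and many other basic helix-loop-helix factors, from base 96 of the window. The peak at *Tef* was among the weakest, with a fold enrichment of 3.03, above that of 1.5% of all peaks, and a listed q above 0.01.

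Windows from genes that differed between the aortas, *Tet1* (chr10:62886800-62886900, minus strand), *Rasl11a* (chr5:146845462-146845562, plus strand), and *Coro6* (chr11:77465041-77465141, plus strand):
Tet1: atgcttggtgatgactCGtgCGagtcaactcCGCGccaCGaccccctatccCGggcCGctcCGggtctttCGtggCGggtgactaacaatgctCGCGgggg
Rasl11a: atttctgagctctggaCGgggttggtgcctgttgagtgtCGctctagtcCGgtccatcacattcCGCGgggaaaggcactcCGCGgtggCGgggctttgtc
Coro6: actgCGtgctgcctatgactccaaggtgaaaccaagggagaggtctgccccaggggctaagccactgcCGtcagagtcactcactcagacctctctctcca
*Tet1*, whose product oxidises methylated cytosine, has 12 CG in this window, *Rasl11a* has 8, and *Coro6*, whose peak lies further into the gene (1239.5 bp from the TSS), has 2.

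Windows from peaks of high fold enrichment, *Soat1* (chr1:156474033-156474133, minus strand) and *Gatd1* (chr7:141413793-141413893, minus strand), the latter with the highest of all members:
Soat1: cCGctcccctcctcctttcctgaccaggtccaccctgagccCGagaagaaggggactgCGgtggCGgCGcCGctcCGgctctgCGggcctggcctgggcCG
Gatd1: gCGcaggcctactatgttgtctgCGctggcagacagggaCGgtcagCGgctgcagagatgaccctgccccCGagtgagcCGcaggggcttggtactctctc
These hold 9 and 6 CG. The G+C content is 74.3% for *Soat1*, which encodes a cholesterol-esterifying enzyme, and 65.3% for *Gatd1*.

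The members were short and sat close behind the TSS. Their centres lay a median of 315.5 bp downstream (quartiles, 226.5 to 496 bp) and their median length was 403 bp (range, 224 to 999 bp), both limited by the rule. The upstream edge lay a median of 87 bp downstream of the TSS. In 83.7% of members (82.6% to 84.8%) this edge was already past the TSS, and in 37.9% (36.4% to 39.3%) it fell in the first 100 bp of the transcript. The summit lay 101 to 400 bp downstream in 58.3% of members (56.8% to 59.7%) and upstream of the TSS in 1.22%. In 16.3% of members (15.2% to 17.4%) the peak reached back over the TSS. The edges and the summit were also limited by the rule, since they belong to peaks chosen by centre and length. All of these intervals cover counting error only.

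**Figure D1:**
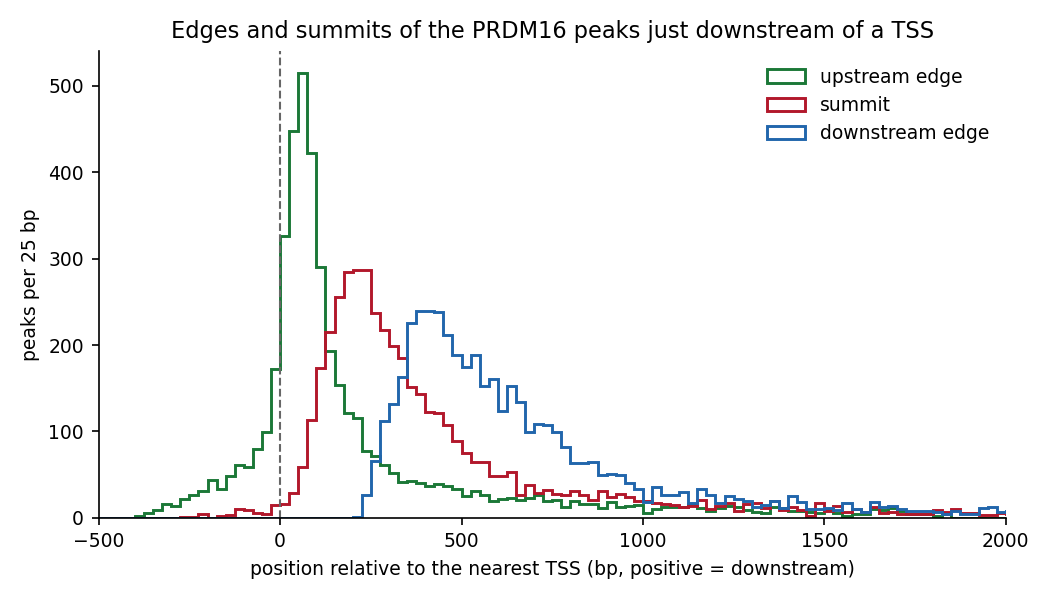
Number of members per 25 bp by the position of the upstream edge, the summit and the downstream edge relative to the nearest TSS (bp, positive is downstream; dashed line, TSS). The upstream edges pile up within the first 100 bp of the transcript, with a median of 87 bp, and few summits lie upstream of the TSS. All of these positions were limited by the rule on the centre and length.

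At the near limit of the rule, the peaks of *Zbtb7c* and *Dgki*, both 101 bp from the TSS, had fold enrichments of 5.58 and 3.03, against 4.04 for *Lpar3* at 100.5 bp. At the far limit, *Sh2b3* (1992 bp) and *Ctif* (1994 bp) had 5.98 and 8.44, against 6.68 for *Tnfrsf1a* (2001.5 bp) and 4.92 for *Fst* (2002 bp). At the length limit, the values were 6.33 for *Dlgap4* (998 bp) and 8.44 for *Tbc1d12* (999 bp), against 7.81 for *Plxdc2* and 4.54 for *Ak5*, both 1000 bp long.

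The fold enrichment, the authors' ratio of the signal at the summit to the local background, had a median of 5.27 (quartiles, 4.34 to 6.33; range, 1.54 to 24.96). These values are coarse. In 60.7% of members the value lay within 0.01 of a whole multiple of 0.352, so that many peaks are tied and the order of peaks a step or less apart cannot be read. A q above 0.01 was listed for 171 members (3.78%), although the study's methods state a threshold of 0.01 for peak calling. The vector library, with 67 peaks, overlapped 1 member, at *Mir101c* (chr9:3037902-3038157), where the fold enrichment was 1.54 with PRDM16 and 1.91 with the vector.

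The 10 highest peaks lay at genes of unrelated function. After *Gatd1*, a glutamine amidotransferase-like gene with a fold enrichment of 24.96, came *Fbxo33* (17.9), which encodes an F-box protein, *Brwd1* (16.5), a bromodomain protein, and *Grk4* (16.2), a kinase of G protein-coupled receptors. The others were *Tmem184c* (15.8), *Poglut3* (15.1), *Tgfb2* (14.8), *Soat1* (14.6), *Ubxn7* (14.4), and *Mpnd* (14.4). The peak at *Gatd1* (chr7:141413265-141414077) differed from the other 9 in not meeting the CpG island criteria used here, with 58.2% G+C and an observed-to-expected ratio of CG of 0.504.

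By position in the transcript, the first intron held the centre of 2345 members (51.9%; 50.4% to 53.4%) and the first exon that of 1891 (41.8%; 40.4% to 43.3%). Within the first exon, 969 centres were in coding sequence and 831 in UTR. Later exons held 3.76% and later introns 1.93%. The share in the first intron was 31.2% among members centred 101 to 200 bp from the TSS and 59.2% among those beyond 1500 and up to 2000 bp. The median fold enrichment was 5.27 in each of these places, the first intron, first-exon coding sequence, and first-exon UTR.

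The splice donor at the end of the first exon lay inside 64.0% of the members whose transcript has an intron (62.6% to 65.5%). For comparison, windows of the members' median length (403 bp, from 114 to 516 bp downstream) were placed at the TSS of 6515 coding genes that had no PRDM16 peak within 2 kb of any curated TSS and a mean of at least 1 TPM in the control aortas. Of these windows, 67.8% (66.6% to 68.9%) held the donor. A TSS of another gene in the opposite direction within 1 kb upstream was found for 12.1% of members (11.1% to 13.05%) and for 16.6% of the genes without a peak (15.7% to 17.5%).

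The members were richer in CG than expressed TSSs without a peak. The CpG island criteria (at least 50% G+C and an observed-to-expected ratio of CG of at least 0.6 over the whole peak) were met by 3665 members (81.1%; 79.9% to 82.2%), against 55.7% (54.5% to 56.9%) of the windows at expressed TSSs without a peak and 12.9% of those at TSSs of genes under 1 TPM. Median G+C was 68.6% in members and 59.1% in the windows without a peak, and the median observed-to-expected ratio was 0.804 against 0.659. Of the peaks upstream of or at a TSS, 71.7% (69.5% to 73.8%) met the criteria, and of those more than 2 kb from a TSS, 12.6%. No test was run on these shares, since there was 1 library, and the intervals do not cover variation between experiments.

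The shares differed in every distance bin, most of all beyond 500 and up to 750 bp. Among members centred 101 to 200 bp downstream, 89.4% (87.1% to 91.5%) met the criteria, against 70.7% (69.6% to 71.8%) of windows centred at 150 bp without a peak. Beyond 500 and up to 750 bp the shares were 76.3% (72.1% to 80.1%) and 18.1% (17.2% to 19.1%). Beyond 1500 and up to 2000 bp, where few windows without a peak met them (1.32%; 1.06% to 1.63%), 26.1% of members still did (19.4% to 33.7%). The 854 members that did not meet the criteria lay further into the gene, at a median of 582.75 bp against 297.5 bp, and had a median fold enrichment of 4.92 against 5.27, a difference of 1 step of the grid.

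**Figure D2:**
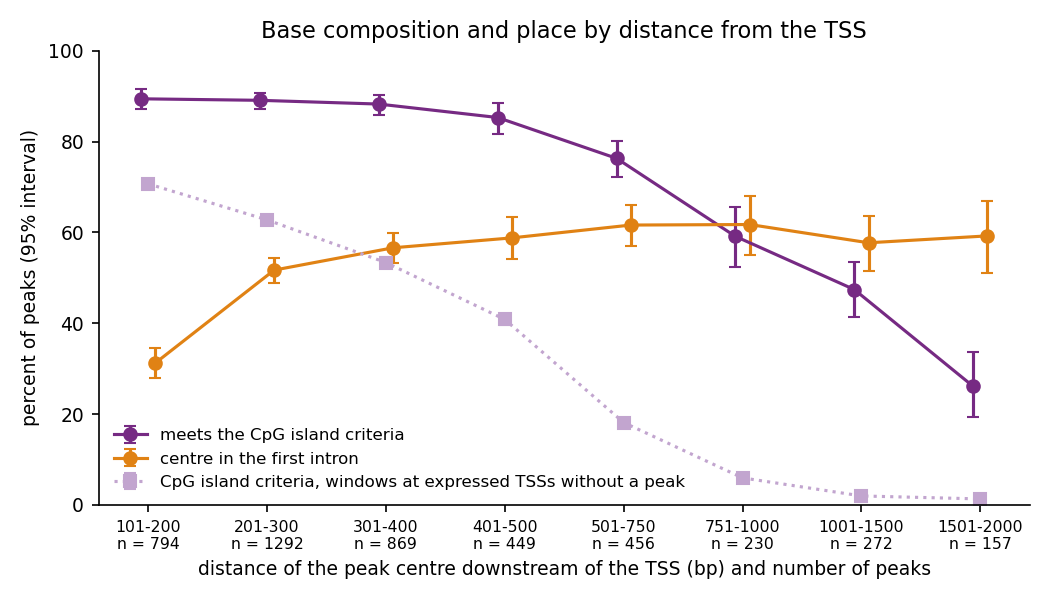
Percent of members, by distance of the centre from the TSS (bp), that met the CpG island criteria (purple circles) or had their centre in the first intron (orange circles), and percent of windows of each bin's median length at expressed TSSs without a peak that met the CpG island criteria (pale squares), with exact 95% intervals. The purple circles stay above the pale squares in every bin, at 89.4% against 70.7% in the nearest bin and 26.1% against 1.32% in the farthest.

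Short sequence motifs were counted on both strands in the whole peak and compared with the same windows without a peak. The GC box GGGCGG, the site of SP and KLF factors, was in 68.4% of members (67.0% to 69.7%) and in 48.1% of windows (46.9% to 49.4%). The splice donor sequence CAGGTGAG was in 8.52% (7.72% to 9.37%) and 6.34% (5.76% to 6.96%), mostly in the direction of transcription. Motifs richer in A and T were less frequent in members. The CCAAT box CCAAT was in 17.7% (16.6% to 18.9%) against 29.4% (28.3% to 30.5%), and the GATA core AGATAA in 4.58% (3.99% to 5.23%) against 8.58% (7.91% to 9.29%). The intervals overlapped for the E-box CACGTG, at 7.13% and 7.34%, for the AP-1 site TGACTCA, at 3.32% and 3.39%, for the CRE TGACGTCA, at 0.509% and 0.522%, and for the YY1 site AAGATGGCG, at 1.46% and 1.17%. The intervals also overlapped for the ETS site ACTTCCGG, at 1.57% (1.23% to 1.98%) and 2.21% (1.87% to 2.60%). Members had more G+C than these windows, and its part in the motif counts was not tested. With the sequence within 100 bp of the summit set against windows of that same length, the E-box was in 2.92% of members (2.45% to 3.45%) and 3.78% of windows (3.33% to 4.27%), the AP-1 site in 1.28% and 1.80%, the CRE in 0.133% and 0.368%, and the ETS site in 0.642% and 1.17%. At this length the GC box was in 46.8% and 30.8%, the GATA core in 1.64% and 4.24%, the CCAAT box in 7.21% and 16.6%, the donor sequence in 4.51% and 2.78%, and the YY1 site in 0.664% and 0.491%. In regions of the same length as the peaks shifted 5 kb further downstream, the GC box was in 7.72% and the GATA core in 22.2%. Over all PRDM16 peaks, the study's own motif analysis with HOMER reported strong enrichment of motifs of MECOM, HAND2, and GATA factors. That analysis covers another set of peaks and consensus motifs rather than 1 fixed sequence. Motifs of MECOM and HAND2 were not counted here.

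The members belonged to 4222 genes, and 95.4% of them to a coding transcript. A single member lay at 3941 of these genes, 2 lay at 267, 3 at 13, and 5 at *Nfix*, which encodes a nuclear factor I protein. A peak upstream of or at a TSS was also present at 380 of the genes (9.0%). Of 21000 coding genes, 19.2% had a member (18.7% to 19.8%). In the control aortas, which are another tissue than the fibroblasts, the share was 30.4% (29.5% to 31.2%) of the 11845 coding genes at 1 TPM or more and 4.84% (4.41% to 5.31%) of those under 1 TPM. It was 1.31% at 0 TPM, 22.2% above 1 and up to 2 TPM, 38.0% (35.0% to 41.1%) above 50 and up to 100 TPM, and 23.1% (11.1% to 39.3%) of the 39 genes above 1000 TPM.

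Aortic level and CpG content both went with the presence of a member in a split by the 2, added after the data were seen. The level was cut only at 1 TPM and could still differ within each part. A member could also lie at another TSS of the gene than the one scored. With a window 114 to 516 bp downstream of 1 TSS per gene, 37.8% (36.7% to 38.9%) of genes at 1 TPM or more had a member where the window met the CpG island criteria, and 15.95% (14.8% to 17.1%) where it did not. Under 1 TPM, the shares were 20.3% (18.4% to 22.4%) and 1.60% (1.33% to 1.91%).

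**Figure D3:**
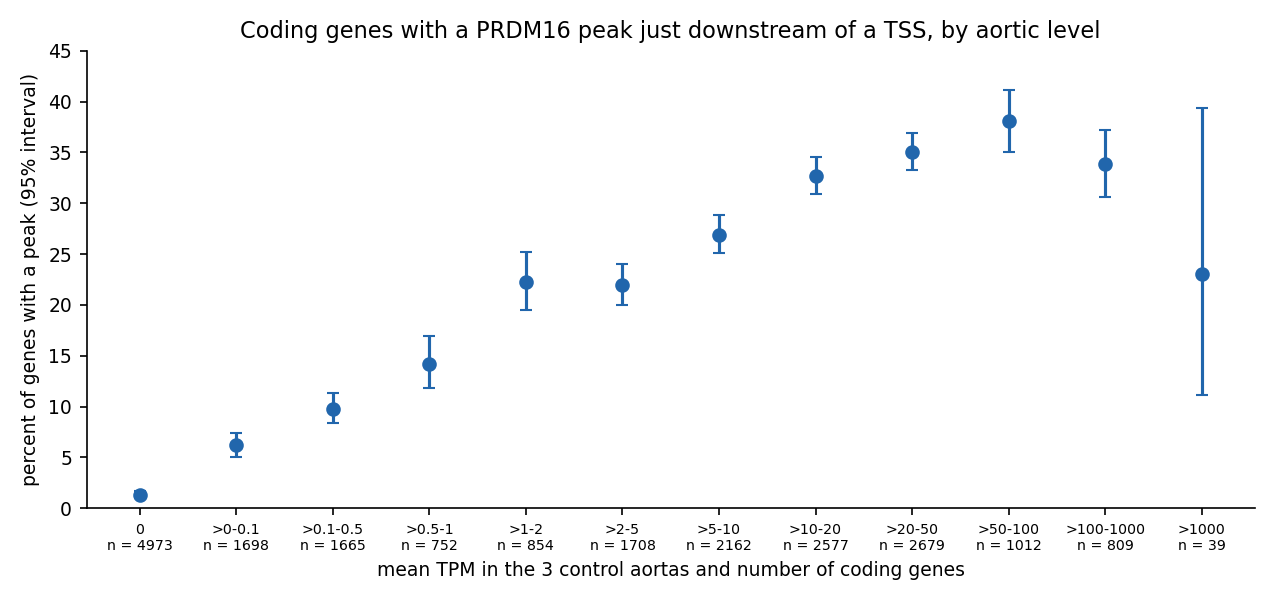
Percent of coding genes with a member, by the mean TPM in the 3 control aortas (horizontal axis, with the number of genes), with exact 95% intervals. The share climbs from 1.31% at 0 TPM to 38.0% above 50 and up to 100 TPM and is 23.1%, with a wide interval, above 1000 TPM.

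The immediate-early genes are transcribed within minutes of a stimulus. With all listed genes counted, their list had the highest share with a member, 13 of 24 (54.2%; 32.8% to 74.4%). The highest peaks of this list were at *Myc* (fold enrichment 7.38, 1240 bp from the TSS), *Klf4* (6.68), and *Dusp1* (5.89). The lists of the TGF-β and BMP pathway (12 of 27), the core clock (10 of 25), PRDM16 cofactors and the PRDM family (11 of 28), heat shock and chaperonin genes (12 of 33), and the Hox genes (14 of 39) had shares of 35.9% to 44.4%, with intervals that contain the 30.4% of all expressed coding genes. That value leaves out genes under 1 TPM, which the lists include. At 1 TPM or more, the share was higher for the Hox genes, 11 of 17, than for the immediate-early genes, 13 of 23. Cytosolic ribosomal protein genes, of which 77 were at 1 TPM or more, had a member at 10 of 81 (12.3%; 6.08% to 21.5%). Other counts were 11 of 39 proteasome subunits, 7 of 28 GATA, HAND, T-box and forkhead factors, 6 of 31 vessel wall matrix genes, 5 of 23 vasoactive receptors, 5 of 23 smooth muscle contraction genes, and 4 of 26 genes of the interferon response and antigen presentation. Of the cell type markers, 1 of 13 for macrophages (*Csf1r*), 1 of 12 for endothelium (*Erg*), 1 of 12 for adipocytes (*Cidea*), and 0 of 12 for skeletal muscle had a member.

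**Figure D4:**
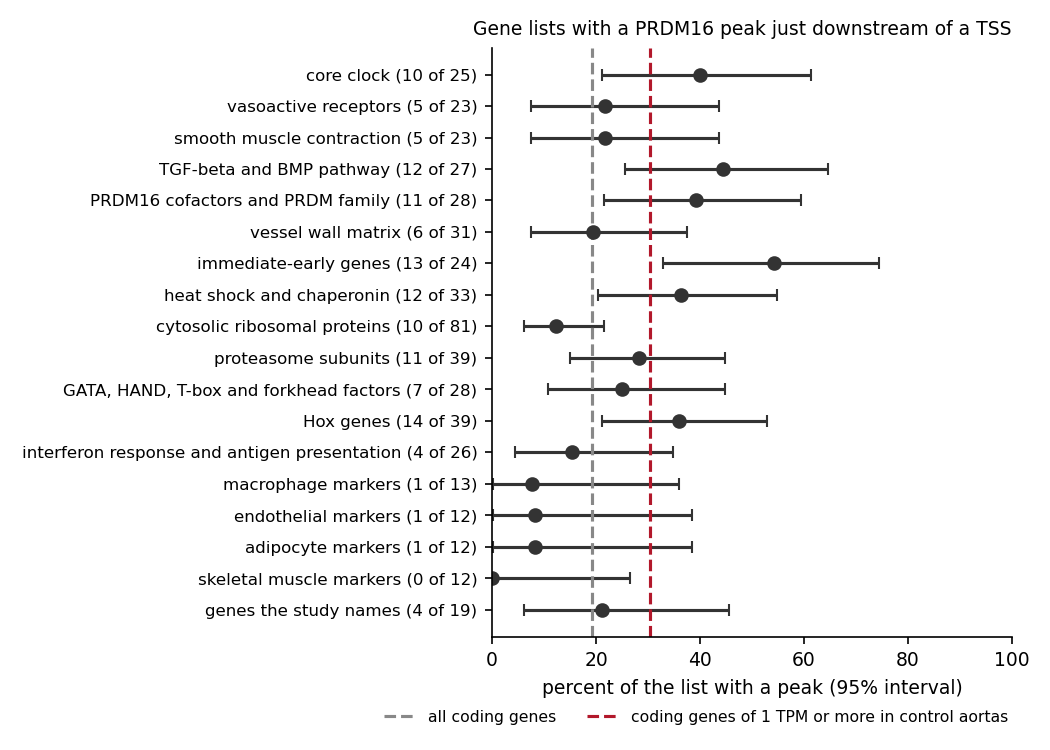
Percent of each gene list with a member (points, with exact 95% intervals and the counts beside the names), against all coding genes (grey dashed line, 19.2%) and coding genes at 1 TPM or more in control aortas (red dashed line, 30.4%). Immediate-early genes lie wholly above the red line. Cytosolic ribosomal protein genes and skeletal muscle markers, of which 3 of 12 were at 1 TPM or more, lie wholly below it. The intervals of the other lists are wide. The lists include genes under 1 TPM, which the red line leaves out.

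In the TGF-β and BMP pathway, members lay at ligands, receptors and inhibitors. Among the ligands, *Tgfb2* had a fold enrichment of 14.8 and *Tgfb1* of 7.06. The receptor genes with a member were *Tgfbr1* (6.33), *Tgfbr2* (7.38), *Tgfbr3* (6.33), *Bmpr1a* (8.44), *Acvr1b* (7.73), and *Acvr2a* (4.92). The inhibitors were *Smad7* (5.91), *Ski* (5.27), and *Skil* (8.79), and the remaining gene was *Ltbp1* (3.85), which encodes a protein that holds latent TGF-β in the matrix. Of these 12 genes, 0 were called in the aortas by limma (described below), and 6 had a log2 fold change above 0. An unadjusted P under 0.05 by limma was found for 5 of the 12, against 12.7% of all tested genes. In its own analysis of these aortas, the study lists *Tgfb2*, *Tgfbr3*, *Smad7*, and *Ltbp1* as higher in the knockout and *Acvr1b*, *Bmpr1a*, and *Ski* as lower.

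In the core clock, members lay at genes of the negative arm and of the accessory loops. *Cry1* and *Cry2* encode the cryptochromes, the repressors of CLOCK:BMAL1, and *Per2* their partner. The peak at *Cry1* (chr10:85184395-85185043) was centred 335 bp downstream of the TSS, in the UTR of the first exon, with a fold enrichment of 7.03. The higher of the 2 members at *Cry2* was centred 271.5 bp downstream in the first intron (5.58), and that at *Per2* 658.5 bp downstream in the first intron (6.20). *Nr1d2*, which encodes REV-ERBβ (5.63), *Rora* (5.98), the bZIP factors *Tef* (3.03), *Hlf* (4.92), and *Nfil3* (4.92), the kinase *Csnk1d* (3.72), and *Btrc* (5.63), whose product marks PER proteins for degradation, completed the 10. *Arntl* and *Npas2*, which encode activators, had no member, but both had PRDM16 peaks outside the limits of the rule. The peak of *Arntl* (fold enrichment 8.79) had its centre 600.5 bp downstream but was 1066 bp long, and *Npas2* had peaks centred upstream, at −213 bp (5.04) and −1032.5 bp (5.98) from the TSS.

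In both vascular lists 21.7% of genes (7.46% to 43.7%) had a member, an interval that contains the 19.2% of all coding genes and the 30.4% of expressed ones. In the smooth muscle list members lay at *Cald1*, which encodes caldesmon (fold enrichment 6.68, the highest of 3 members), at *Mrtfa* (6.68) and *Srf* (4.26), which encode a coactivator and the factor it binds, at *Rock1* (6.51), and at *Ppp1cb* (4.22). In the list of vasoactive receptors they included those at the β-adrenergic receptor genes *Adrb1* (4.92) and *Adrb3* (4.92), at the prostaglandin F receptor gene *Ptgfr* (4.22), and at the endothelin receptor gene *Ednra* (5.01). Of a list of 19 genes named in the study, which are not all that it names, 4 had a member, *Cry1*, *Cry2*, *Per2*, and *Ptgfr*. The study chose some of these genes on the same samples, so their count is not independent evidence. The study also names *Tgfb2*, *Ski*, and *Mecom*, each of which has a member. Its supplement lists further genes as differentially expressed with a PRDM16 peak in the promoter, among them *Lox*, *Rasl11a*, *Tet1*, *Plat*, and *Col3a1*.

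Other regulators with a member included PRDM family genes and partners of PRDM16. *Mecom* (5.63), the closest relative of *Prdm16*, *Prdm6* (6.33), *Prdm11* (4.22), and *Prdm15* (6.01) were in this list, as were the cofactor genes *Ctbp1* (4.57), *Ehmt2* (4.92), *Hdac1* (5.98), *Cebpb* (5.71), *Zfp516* (4.46), and *Ebf2* (4.22). Of the heat shock list, *Hsp90aa1* had the highest fold enrichment (7.73), followed by *Hspa1a* (7.13), *Hsph1* (6.68), and *Bag3* (6.68). *Psma7* stood out among proteasome subunits with 12.0, where the other 10 had 3.03 to 6.33. Of the Hox genes, *Hoxc8* (8.79) and *Hoxb6* (6.51) were the highest. Among the GATA, HAND, T-box and forkhead factors, *Foxf1*, *Foxo1*, *Foxd1*, and *Zfpm1*, a partner of GATA factors, had values of 6.33 to 6.68. Of the ribosomal protein genes, *Rpl10a* (5.98) and *Rps15a* (5.27) were the highest.

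The aortas were then asked whether genes with a member differ between Prdm16SMKO and control mice. Levels are in TPM, and a gene was called at an adjusted P under 0.05 by limma on log2(TPM + 0.1), a scale that understates the changes of low genes. Of the 4222 genes, 4190 were found in the table and 3784 passed the filter on low values. Of these, 40 were called (1.06%; 0.756% to 1.44%), 11 higher and 29 lower. The background over all 15668 tested genes was 1.07%, or 0.389% higher and 0.683% lower, against 0.291% and 0.766% of genes with a member, so in this fit the share called was close to the background. At an unadjusted P under 0.05 there were 525 (13.9%), against 12.7% of all tested genes. The 3 control and 3 Prdm16SMKO values did not overlap for 827 genes with a member (21.9%), against 19% of all tested genes. The median log2 fold change was −0.11 for genes with a member and −0.12 for all genes tested, and the fold changes below were not corrected for that shift. The study's own analysis lists further genes with a member, not called here, as differentially expressed in these aortas. A gene not called here was therefore not shown to be unchanged.

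The split between directions depended on the scaling. With aortas rescaled by median ratio, which brought the median of all genes to 0.00, 126 genes with a member were called (3.33%, against 2.62% of all genes tested), 64 higher and 62 lower, and after quantile normalization 117 (58 higher and 59 lower). With either scaling, 39 of the 40 were still called. Near *Prdm16* on chromosome 4, where calls were more frequent, 5 of 66 genes with a member within 20 Mb were called, against 20 of all 237, and elsewhere the share was 0.941% against 0.959%.

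*Prdm16* itself had 56.1, 47.6, and 40.3 TPM in control aortas and 23.3, 33.3, and 23.4 TPM in Prdm16SMKO aortas, without overlap but with an adjusted P of 0.072 by limma. Smooth muscle markers were abundant in all 6 aortas, with a summed level of 19964 to 23113 TPM in control and 13216 to 17004 TPM in Prdm16SMKO aortas, ranges that do not overlap. Summed adipocyte markers ranged from 381 to 1445 TPM and from 420 to 999 TPM, and blood markers from 895 to 4410 TPM and from 726 to 2514 TPM. Fibroblast markers summed to 828 to 1067 TPM and 725 to 1025 TPM, endothelial markers to 88.4 to 110 TPM and 61.3 to 137 TPM, macrophage markers to 35.4 to 52.0 TPM and 27.4 to 48.1 TPM, and skeletal muscle markers to 8.92 to 12.7 TPM and 4.77 to 12.8 TPM. Of the 32 tested markers, 0 were called by limma and 6 had an unadjusted P under 0.05, against 12.7% of all tested genes. Of the 35 markers found in the table, 0 were at 0 in every aorta. The part of these cell types in the results below was not tested, and fewer cells of a type and less RNA per cell cannot be told apart in bulk tissue.

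Among the genes that fell, *Arhgef19* (ENSMUSG00000028919), which encodes a guanine nucleotide exchange factor, had 14.9, 10.1, and 8.61 TPM in control aortas and 0.760, 1.95, and 1.3 TPM in Prdm16SMKO aortas. All knockout values were under the lowest control value (log2 fold change −3.03, SE 0.34, adjusted P = 0.0052 by limma). The gene lies within 20 Mb of *Prdm16* on chromosome 4, where calls were more frequent, and its peak, 1183 bp downstream of the TSS in a later exon, had 60.5% G+C but an observed-to-expected ratio of CG of 0.343. *Lox* (ENSMUSG00000024529), the enzyme that crosslinks collagen and elastin, had 77.17, 61.25, and 68.80 TPM in control and 30.25, 24.95, and 25.21 TPM in Prdm16SMKO aortas. The groups did not overlap (log2 fold change −1.36, SE 0.14, adjusted P = 0.0037 by limma). Its peak was centred 311.5 bp downstream of the TSS of the assigned transcript, in the first intron, with a fold enrichment of 4.92.

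*Rasl11a* (ENSMUSG00000029641), a small GTPase of the Ras family, had 17.8, 12.7, and 14.2 TPM in control and 4.0, 6.86, and 4.45 TPM in Prdm16SMKO aortas, without overlap (log2 fold change −1.55, adjusted P = 0.016 by limma). It has 2 members, and the higher had a fold enrichment of 8.44, above that of 92.5% of all peaks. *Tet1* (ENSMUSG00000047146) had 10.7, 6.71, and 6.93 TPM against 2.31, 2.71, and 3.15 TPM, again without overlap (log2 fold change −1.52, adjusted P = 0.020 by limma). *Mmp28* (ENSMUSG00000020682), a matrix metalloproteinase, had 7.93, 7.59, and 7.39 TPM against 3.20, 3.15, and 1.95 TPM (log2 fold change −1.46, adjusted P = 0.020 by limma). *Nos1ap* (ENSMUSG00000038473), an adaptor of neuronal nitric oxide synthase, had 34.4, 23.4, and 28.7 TPM against 13.8, 13.6, and 8.97 TPM (log2 fold change −1.25, adjusted P = 0.030 by limma). In both, every knockout aorta was below every control aorta. Of these 6 genes, *Lox* was called under all 14 alternative fits and *Arhgef19* under 13. The calls of *Rasl11a*, *Tet1*, *Mmp28*, and *Nos1ap* were lost without control aorta 1 and without control aorta 3, among other fits, and their highest adjusted P values over the alternatives were 0.0911, 0.0813, 0.0821, and 0.141 by limma.

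Among the genes that rose, *Cry1* (ENSMUSG00000020038) had 1.65, 2.03, and 2.02 TPM in control and 5.76, 7.75, and 5.09 TPM in Prdm16SMKO aortas, without overlap (log2 fold change 1.64, SE 0.23, adjusted P = 0.012 by limma). The study's methods give no time of day for the RNA-Seq aortas, and in its qPCR series clock gene levels varied over the day. The part of timing in the values of *Cry1* and the other clock genes was not tested. *Slc6a17* (ENSMUSG00000027894), a vesicular transporter of neutral amino acids, had 3.71, 4.41, and 3.52 TPM against 10.7, 13.5, and 12.1 TPM. Its lowest knockout value was above its highest control value (log2 fold change 1.61, SE 0.17, adjusted P = 0.0042 by limma). *Slc8a3* (ENSMUSG00000079055), a sodium-calcium exchanger, had 1.39, 1.22, and 1.48 TPM against 4.18, 5.16, and 3.28 TPM (log2 fold change 1.54, adjusted P = 0.027 by limma), although its peak was among the weakest, with a fold enrichment of 3.28. *Coro6* (ENSMUSG00000020836), an actin-binding coronin, had 8.39, 8.86, and 6.32 TPM against 17.1, 25.1, and 16.7 TPM (log2 fold change 1.3, adjusted P = 0.023 by limma). The groups did not overlap for either gene.

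The noncoding transcripts *4930426L09Rik* and *Gm43305* were also higher. *4930426L09Rik* (ENSMUSG00000026736) had 1.08, 0.920, and 0.550 TPM in control and 3.63, 3.19, and 2.39 TPM in Prdm16SMKO aortas (log2 fold change 1.76, adjusted P = 0.0497 by limma). *Gm43305* (ENSMUSG00000105703) had 2.89, 3.06, and 2.11 TPM against 6.39, 7.31, and 5.84 TPM (log2 fold change 1.26, adjusted P = 0.030 by limma). Neither overlapped between the groups. These transcripts, *Cry1*, and *Slc8a3* all had control values near the low end of the levels tested. *Slc6a17* was called under all 14 alternative fits and *Cry1* under 13, with an adjusted P of 0.0512 by limma without the mean-variance trend. The calls of *4930426L09Rik* (3 of 14 fits) and *Gm43305* (6) were lost whichever aorta was left out. Those of *Coro6* (10) and *Slc8a3* (7) were lost without control aorta 1 and without control aorta 3.

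**Figure D5:**
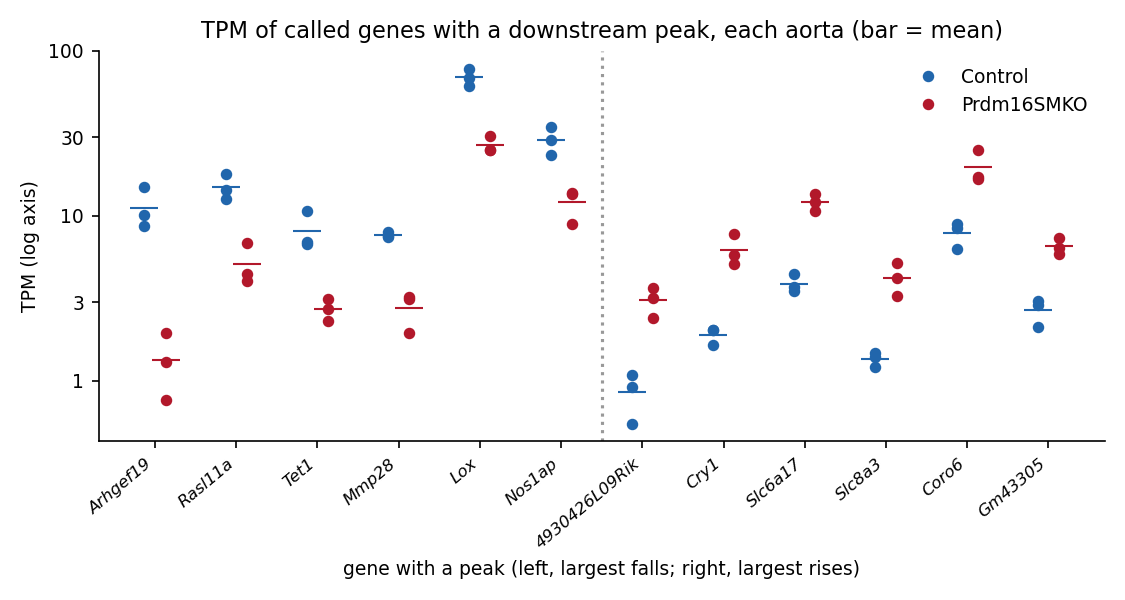
TPM (log axis) in each of the 3 control (blue) and 3 Prdm16SMKO (red) aortas for the called genes with a member that had the largest falls (left of the dotted line) and rises (right), with bars at the means. Genes were chosen among calls whose groups do not overlap. The largest fall was that of *Arhgef19*, at 8.61 to 14.9 against 0.760 to 1.95 TPM. The largest rise was that of *4930426L09Rik*, at 0.550 to 1.08 against 2.39 to 3.63 TPM.

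By list, the vessel wall matrix genes held 2 of the called genes. Besides *Lox*, *Col3a1*, which encodes a fibrillar collagen, fell from 865, 598, and 717 TPM in control aortas to 445, 373, and 360 TPM in Prdm16SMKO aortas (log2 fold change −0.88, adjusted P = 0.035 by limma). That call was lost without control aorta 1 or 3 and without Prdm16SMKO aorta 2 or 3, with adjusted P values up to 0.172. Of the other list members with a peak, *Fn1*, *Loxl1*, and *Timp2* had log2 fold changes of −0.60, −0.59, and −0.05, *Vcan* had 0.25, and the adjusted P values by limma were 0.084 or higher. In the whole list, 5 of 30 tested genes were called, all lower. The list leaves out some matrix genes with a member that were called lower, among them *Comp* and *Sparc* (adjusted P = 0.015 and 0.039 by limma). Those calls held under 11 and 6 of the 14 alternative fits. In the core clock, *Cry1* was the called gene with a member, where 4 of 24 tested genes of the list were called, 3 higher and 1 lower. *Per2* had a log2 fold change of 0.63, *Hlf* of 0.63, *Tef* of 0.51, *Nr1d2* of 0.31, *Cry2* of 0.07, *Rora* of −0.07, *Csnk1d* of −0.13, *Btrc* of −0.37, and *Nfil3* of −0.65, with adjusted P values of 0.24 to 0.90 by limma. With *Cry1*, 6 of these 10 genes had an unadjusted P under 0.05 by limma, against 12.7% of all tested genes. In its own analysis of these aortas, the study lists *Per2*, *Tef*, *Hlf*, and *Nr1d2* as differentially expressed, all higher in the knockout. In the lists of immediate-early genes, heat shock genes, PRDM16 cofactors, proteasome subunits, Hox genes, and ribosomal proteins, 0 of the genes with a member were called by limma. In that order, 5 of 13, 7 of 12, 3 of 11, 3 of 11, 1 of 12, and 0 of 10 had an unadjusted P under 0.05. The share was 12.7% over all tested genes. The heat shock list leaves out *Hspb7*, a small heat shock protein gene with a member that was called lower (log2 fold change −1.14, adjusted P = 0.0084 by limma).

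Of the genes at the 10 highest peaks, 0 were called by limma and 1 had an unadjusted P under 0.05, against 12.7% of all tested genes. *Gatd1* had 6.87, 4.81, and 5.48 TPM in control and 5.91, 7.21, and 4.90 TPM in Prdm16SMKO aortas, with overlapping groups (log2 fold change 0.07, adjusted P = 0.93 by limma). *Tgfb2* was at 46.6, 31.2, and 36.5 TPM against 46.8, 59.6, and 47.1 TPM, and its groups did not overlap (log2 fold change 0.43, adjusted P = 0.34 by limma).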

How the data were processed

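PRDM16 and vector anti-Flag ChIP-Seq peak lists from mouse fibroblasts (1 library each) and RNA-Seq from 3 control and 3 Prdm16SMKO aortas were used. Per the study's methods, the authors mapped ChIP reads with bowtie2 to GRCm38 and called peaks using MACS2 (q threshold, 0.01). Each library has its own deposited peak list. The genome size preset was that for human and the control library is not stated, and both bear on fold enrichment, q, and which regions were listed. The deposited fold enrichment (a ratio), −log10 p, and −log10 q were taken as the authors gave them, and the deposited score was not used. The TPM table that the authors deposited has a column for every aorta, and the submitters' processing notes list STAR 2.7.8a and RSEM 1.3.3. Counts were not used here, and the depth is unknown. The columns headed WT were taken as the control aortas.

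Peaks were placed with the RefSeq annotation of GRCm38, and sequences were read from the same assembly with pysam 0.24.0. Shares have exact Clopper-Pearson intervals at 95%, and p-values were not computed for peaks. TPM were tested with limma 3.58.1 in R 4.3.3 (eBayes with a mean-variance trend, no covariates) on log2(TPM + 0.1), keeping genes whose mean TPM was 0.5 or higher, with Benjamini-Hochberg adjustment over all of them. The procedure was tested on simulated data. P values set the difference between groups against the spread within them. Nothing says whether aortas of a group came from separate litters or days, so it is not known whether they are independent.

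Members, gene lists, and tests were chosen with earlier results of these data known. The rule for named genes took up to 4 genes per list, the 6 largest rises and 6 largest falls among calls without overlap whose mean TPM was 1 or higher, the 10 highest peaks, and peaks at the limits of the rule. The further members of the TGF-β, clock, vascular, and PRDM lists were added after their values were seen. Values of a few genes are not reported here. Alternatives covered the annotation, the summit in place of the centre, stricter q, pseudocounts of 1 and 0.01, other filters and scalings, no trend, the replicate number as a block, and leaving out each aorta. Software was Python 3.11.15 with scipy 1.17.1, numpy 2.4.6, pandas 2.3.3, and matplotlib 3.10.9.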

Additional observations from a re-analysis of the deposited data

How the results depend on the processing

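The number of members stayed within 1.5 times of 4519 under all 7 alternatives, from 3994 (q of at most 0.001) to 4986 (peaks of any length). With all RefSeq transcripts, predicted ones included, 48.1% of members had their centre in the first intron, 18.8% spanned the TSS, and 76.9% met the CpG island criteria. Placed by the summit, 50.1% had it in the first intron, and with a q of at most 0.001, 17.5% spanned the TSS and 82.3% met the criteria.

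Against 40 called genes with a member, 14 were called without a filter on low values, 117 after quantile normalization, 126 with median-ratio rescaling, and 3 without a mean-variance trend in limma, and 12 to 25 with 1 aorta left out at a time, the fewest without control aorta 1 or control aorta 3. The share of genes with a member called, against that of all tested genes, was 0.341% and 0.419% without the filter, 3.09% and 2.50% after quantile normalization, 3.33% and 2.62% with median-ratio rescaling, 0.0793% and 0.306% without the trend, and 0.317% to 0.662% and 0.583% to 0.896% with 1 aorta left out, so whether it lay above or below the background depended on the fit. The cause was not tested, except that leaving out an aorta leaves fewer samples. With a pseudocount of 1 or 0.01, a mean TPM of at least 1, a q of at most 0.001, or a limit of 1000 bp, the count was 32 to 50. The shares were 0.846% to 1.37%, against 0.913% to 1.44% of all tested genes. Without genes within 20 Mb of *Prdm16*, a choice made after the data were seen, it was 35 (0.941%, against 0.959%). None of the 40 genes changed sign in any fit. Replicate numbers were not taken to pair aortas. Same-numbered aortas had correlations of −0.0246, −0.07, and −0.00896 between their deviations from the group means. With the replicate block 36 genes with a member were called (0.951%, against 1.17% of all tested genes), 32 of them among the 40.

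Each peak value rests on 1 library of unknown depth in cells that carried tagged PRDM16 from a vector, and the aortas are another tissue. Genes without a member include genes with a longer peak or a peak elsewhere.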

Other observations

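Chromosome X had fewer members than the autosomes. Of its 389 coding genes at 1 TPM or more in control aortas, 32 had a member (8.23%; 5.69% to 11.4%), against 31.1% (30.3% to 32.0%) of 11452 on the autosomes. The autosomes ranged from 23.3% (20.6% to 26.2%) on chromosome 7 to 38.4% (33.0% to 44.0%) on chromosome 18. The median fold enrichment of the 39 members on chromosome X was 4.65, against 5.27 over all members. The labels give neither the sex of the fibroblasts nor the copy number of chromosome X, and their part in this was not tested.

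The genes with the most members are named here after their values were seen. *Nfix* had its 5 members behind 3 different TSSs. Genes with 3 each included *Zeb2*, *Tbx1*, *Tshz1*, *Pknox2*, *Rbms1*, *Mxi1*, *Cald1*, *Adcy7*, *Ampd2*, *Ahnak2*, *Slc12a4*, and *Hotairm1*, a noncoding transcript of the HoxA cluster. In *Hotairm1* the member furthest from the TSS, centred 1597.5 bp downstream, had the highest fold enrichment of the 3, 10.2 against 5.63 for each of the others.

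Further called genes with a member, also chosen after their values were seen, included *Plat*, which encodes tissue plasminogen activator. It had 30.25, 26.07, and 30.16 TPM in control and 62.59, 63.86, and 61.37 TPM in Prdm16SMKO aortas (log2 fold change 1.12, adjusted P = 0.0039 by limma). It was called under all 14 alternative fits. *Hspb7*, a small heat shock protein gene within 20 Mb of *Prdm16*, had 287, 249, and 228 TPM against 111, 136, and 101 TPM (log2 fold change −1.14, adjusted P = 0.0084 by limma). That call held under 13.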
